A study of Homo sapiens with 46 samples.

Results

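The libraries described here are 8 of the 46 RNA-seq libraries of a study of nuclear lamins: untagged, wild-type DLD-1 cells, called the parental line, after 16 h of auxin (n = 4) and at 0 h (n = 4). They were taken by their column names in the deposited table of counts. DLD-1 is an established human colorectal adenocarcinoma cell line that grows attached. In the rest of the study, lines named LA/C-AID, LB1-AID and LB2-AID (LAC, LB1 and LB2 in the plots) each carry a degron tag on 1 of the 3 endogenous lamins (A/C, B1 and B2, in that order). The degron has the tagged protein degraded once auxin is added, and the parental line was included to list the genes that answer to auxin itself. Auxin was used at 1 mM from a stock in DMSO, so at 16 h the cells had received both. The labels do not say whether the wells at 0 h received DMSO, and auxin and its solvent cannot be told apart in this comparison. A replicate was a single well, so the p-values below measure the spread between wells. Whether the parental line carries the plant receptor that degron systems need is not given in the sources used here.

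Auxin is a plant hormone, indole-3-acetic acid, and has no receptor of its own in human cells. Indoles are however known ligands of the aryl hydrocarbon receptor (AHR), a cytoplasmic transcription factor that binds DNA with ARNT once a ligand has entered it and switches on enzymes of xenobiotic metabolism, CYP1A1 foremost. In the intestinal epithelium, where bacteria make indoles from tryptophan, this receptor is best known as a sensor of diet and microbes.

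The 8 libraries held 3770140 to 37309421 counts, with 3770140 to 11696867 at 0 h and 6549862 to 37309421 at 16 h. A count of 0 allows a level of up to 0.725 CPM (counts scaled to library size by the TMM method of edgeR) in the least deep of them and 0.0821 CPM in the deepest, for counting error only. Epithelial identity was present in every library: all 12 epithelial markers tested were measured above the low-count filter, KRT8 at 4176 CPM at 0 h and 4017 CPM at 16 h, and their summed level ran from 8164 to 9254 CPM at 0 h and from 7804 to 9419 CPM at 16 h. Markers of other cell types were mostly below the filter: 3 of 8 fibroblast markers passed it, with a summed level of at most 3.78 CPM, 4 of 6 endothelial markers, with at most 22.6 CPM, and 1 of 7 leukocyte markers, CD14, with at most 3.55 CPM. The endothelial sum was mostly that of VWF and CLDN5, a claudin that fell from 6.57 to 2.86 CPM (edgeR adjusted p = 0.00573), while PECAM1 had 0.413 and 0.0933 CPM. Replicate 1 at 0 h stood apart in its small noncoding RNA (annotated misc_RNA), with 2.09% of its counts against 0.629% to 1.12% in the other 0 h libraries.

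Many genes differed between 16 h of auxin and 0 h. In the fit of all 46 libraries with the quasi-likelihood test of edgeR, 1935 of 21484 genes tested (9.01%) were called at an adjusted p under 0.05, of which 909 were higher at 16 h (4.23%) and 1026 lower (4.78%). The genes that rose were abundant and moved a little: 96.8% were protein-coding, their median level was 60.6 CPM and their median log2 fold change was 0.53. The genes that fell were mostly scarce and moved further: 45.1% were protein-coding, their median level was 3.90 CPM and their median log2 fold change was -1.27. At least 2-fold changes were called for 734 genes (3.42%), 56 higher and 678 lower. In bulk RNA a lower level cannot be told apart as fewer cells of a type or less RNA per cell.

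The split between the directions moved with the scaling, from 47.0% higher among the calls to 26.4% under RLE scaling and 21.3% by library size alone, settings that shift the median of all genes by -0.10 and -0.12 on the log2 scale. Changes also followed abundance: the median log2 fold change was -0.56 in the 10% of genes with the lowest levels and 0.19 in the 10% with the highest. With that trend removed, 1086 genes were called, 457 higher and 629 lower. Among protein-coding genes of at least 10 CPM, 1040 of 9378 were called (11.1%), 815 higher (8.69%) and 225 lower (2.4%), around a median of 0.14. The total fell to 1036 without replicate 1 at 0 h, 1278 without replicate 3 and 1053 without replicate 4 at 0 h, and to 1054 and 959 without replicates 1 and 4 at 16 h.

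Of the 99 called genes that the naming rule gave, 33 kept their direction but lost the call without replicate 1 at 0 h (edgeR adjusted p = 0.0509 to 0.133). Among those described below, log2 fold changes without it were 1.67 for GJB6, 1.54 for PTCHD1, 1.65 for FGF22, 1.25 for DHRS3, 0.79 for OAS2, 0.58 for SLC7A5, 0.54 for CLOCK, 0.52 for PDIA4, 0.51 for SRF, 0.48 for CYP2J2 and HSPA8, 0.47 for ALDH3A1, 0.44 for DNAJC3, 0.43 for XPC and 0.36 for RPL4. On the lower side they were -1.22 for CXCL8, -1.16 for AXL, -0.95 for MT-ND1, -0.85 for LTBP2, -0.74 for CCDC80, -0.72 for DDIT3, -0.70 for DDIT4, -0.50 for SYNE2 and -0.31 for TXNRD1. CYP1A1, CYP1B1, ANKRD1, CDX2 and PER2 kept their calls without it.

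**Figure D1:**
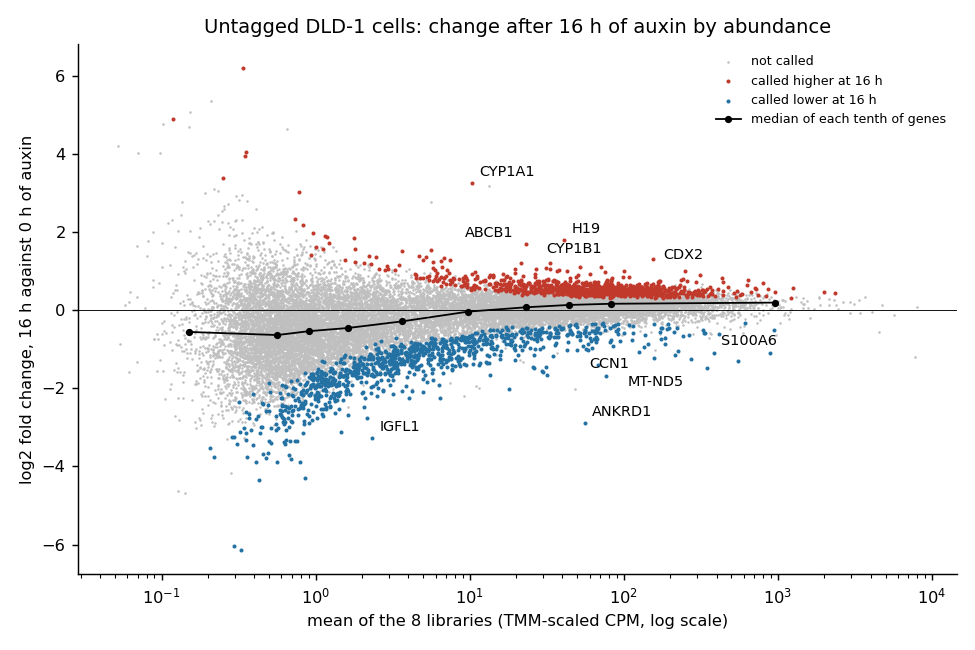
Log2 fold change at 16 h against 0 h (vertical axis) by mean level of the 8 parental libraries (horizontal log axis, TMM-scaled CPM), 1 point a gene, with genes called higher in red and lower in blue. The black line joins the medians of 10 equal bins of genes by level, which run from -0.56 in the lowest bin to 0.19 in the highest, and CYP1A1 and ANKRD1 lie far from it.

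CYP1A1, the AHR target enzyme that oxidises polycyclic compounds, rose most among the protein-coding genes named by size. Its level was 2.44, 1.82, 0.897 and 2.90 CPM in the 0 h libraries and 17.5, 17.9, 16.2 and 23.5 CPM in those at 16 h. The groups did not overlap, which held for 20.3% of all genes tested, and the log2 fold change was 3.24 ± 0.26 (SE, edgeR adjusted p = 1.357e-12). CYP1B1, a related enzyme, had 40.1 to 51.0 CPM at 0 h and 92.8 to 103.8 CPM at 16 h, again without overlap (log2 fold change 1.09 ± 0.13, edgeR adjusted p = 5.507e-07). ALDH3A1, an aldehyde dehydrogenase, rose too (log2 fold change 0.51, edgeR adjusted p = 0.0192, a call lost under 8 of 17 alternatives), and its groups overlapped, with 92.1 CPM in the highest 0 h library and 91.0 CPM in the lowest at 16 h.

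These were 3 of the 9 AHR targets that passed the filter (10 listed), against 4.23% of all genes higher and 8.69% of abundant protein-coding ones, and none fell. With RLE or library-size scaling or the abundance trend removed, 2 were called. CYP1A2 did not pass. TIPARP, a target that feeds back on the receptor, had a log2 fold change of 0.41 (edgeR adjusted p = 0.117) and AHRR, the receptor's repressor, -0.08 (edgeR adjusted p = 0.981), and neither passed the test. The list's median was 0.37, against 0.14 for abundant protein-coding genes. None of the 6 genes of the receptor's own machinery was called, AHR itself at 341 CPM at 0 h and 303 CPM at 16 h among them.

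CYP1A1 lies on chromosome 15 (74719542 to 74725536 in the deposited table, GRCh38, minus strand). The 250 bases before its start in RefSeq (GRCh38.p14) are shown because the gene rose most among the protein-coding genes named by size. Capitals mark the core of the element bound by AHR and ARNT, read GCGTG, or CACGC where it lies on the other strand, which these letters hold once.
CYP1A1, chr15:74725529-74725778, minus strand: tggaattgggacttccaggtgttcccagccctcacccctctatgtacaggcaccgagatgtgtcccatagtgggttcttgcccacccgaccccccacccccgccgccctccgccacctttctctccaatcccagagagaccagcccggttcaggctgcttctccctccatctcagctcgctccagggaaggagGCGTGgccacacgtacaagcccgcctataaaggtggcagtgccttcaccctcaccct

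Among 27305 promoters of the same length, 31.9% hold that core, and 4 of the 8 AHR targets with an entry do. The window of FGF22, next after CYP1A1 among the genes named by size, holds it 1 time too and is not shown. The window is short, and a match is a description of letters.

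**Figure D2:**
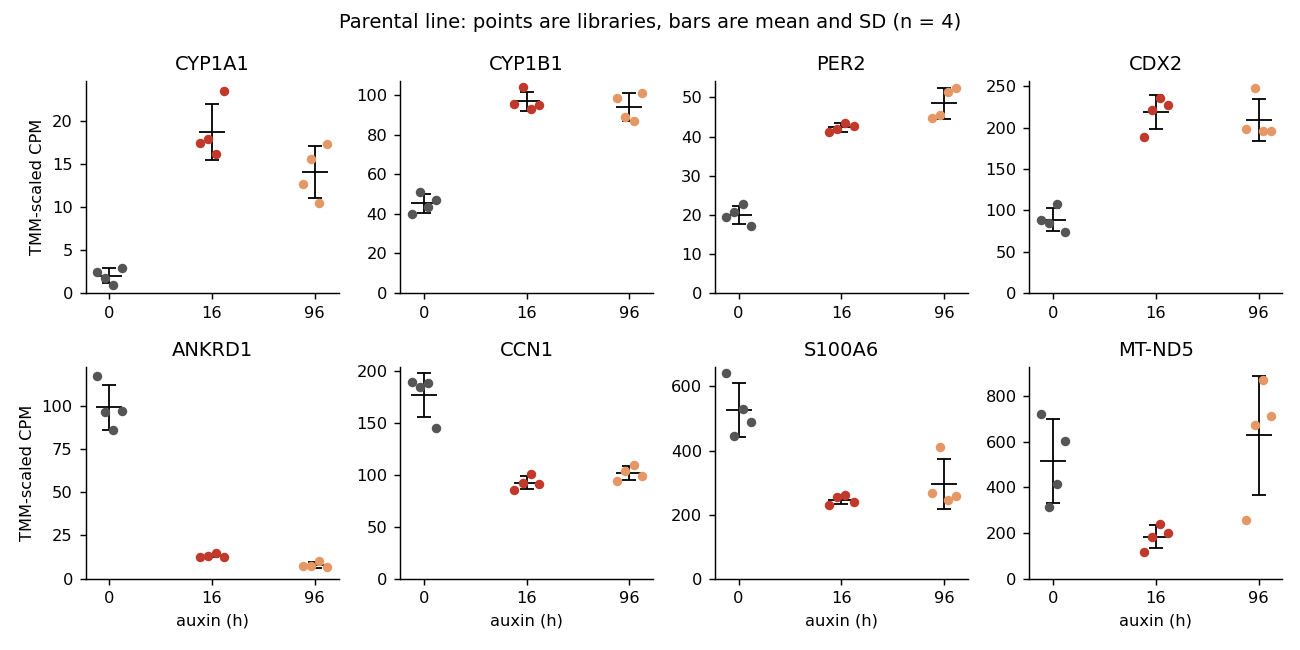
TMM-scaled CPM of 8 genes in each parental library at 0, 16 and 96 h of auxin (points), with mean and SD (n = 4). CYP1A1, CYP1B1, PER2 and CDX2 are higher in every 16 h library than in any at 0 h, and ANKRD1, CCN1, S100A6 and MT-ND5 are lower.

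Genes of drug handling moved in a few cases. ABCB1, the efflux pump also called P-glycoprotein, had 12.3, 11.2, 11.7 and 8.22 CPM at 0 h and 29.8, 35.3, 39.1 and 38.0 CPM at 16 h. Every library at 16 h lay above every one at 0 h, with a log2 fold change of 1.69 ± 0.21 (edgeR adjusted p = 6.188e-07). EPHX1, an epoxide hydrolase, and CYP2J2, a cytochrome, rose by 0.51 and 0.49, and ABCC3, a conjugate exporter, fell by 0.56. In all, 3 of 18 members of the list of conjugation and export genes rose and 1 fell, against 4.23% and 4.78% of all genes. The count that rose was 1 with the abundance trend removed and 1 to 3 with 1 library left out, and CYP2J2 lost its call under 6 of 17 alternatives. Among 15 genes of indole and tryptophan handling, SLC7A5 alone was called: this large neutral amino acid carrier rose from 1013 to 1498 CPM (log2 fold change 0.56, edgeR adjusted p = 0.0413, a call lost under 10 of 17 alternatives). Of 15 targets of NRF2, the oxidant-responsive factor, 1 was called: TXNRD1 fell by 0.33 on the log2 scale.

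The deepest fall in an abundant gene was that of ANKRD1, a nuclear ankyrin repeat protein and a widely used target of the YAP coactivator. Its level was 117, 96.1, 85.9 and 96.7 CPM at 0 h and 12.7, 13.0, 14.7 and 12.7 CPM at 16 h. The log2 fold change was -2.90 ± 0.18 (edgeR adjusted p = 2.325e-16), which is 7.48-fold lower. CCN1, a secreted matrix protein and another target of YAP, had 145 to 190.0 CPM at 0 h and 85.6 to 101.0 CPM at 16 h, without overlap (log2 fold change -0.94, edgeR adjusted p = 0.000222).

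YAP and its partner TEAD drive genes of spreading, stiffness and growth in attached cells. Of 22 listed targets, 20 passed the filter, 8 fell and 1 rose, against 4.78% and 4.23% of all genes. ANKRD1, CCN1, AMOTL2, CCN2, F3, NT5E, AXL and CCDC80 fell, the last 2 with calls lost under 8 and 10 of 17 alternatives, and NUAK2, a kinase, rose by 0.66 on the log2 scale. The list was not of a piece: MYOF, PTPN14 and ARHGEF17 had log2 fold changes of -0.04, -0.00 and -0.01, and the median was -0.18, or -0.28 with RLE scaling. The count of 8 held under both other scalings and with the abundance trend removed. It was 2 without the low-count filter, 3 without replicate 1 or 2 at 0 h, 4 without replicate 3 at 0 h or replicate 1 or 2 at 16 h, and 5 without replicate 3 at 16 h.

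ANKRD1 lies on chromosome 10 (90912096 to 90921087, GRCh38, minus strand). The 250 bases before its RefSeq start are shown for the gene that fell most among the abundant ones, a choice made after its values were seen. Capitals mark GGAATG, or CATTCC where it lies on the other strand, the letters that TEAD proteins bind, which occur 2 times.
ANKRD1, chr10:90921088-90921337, minus strand: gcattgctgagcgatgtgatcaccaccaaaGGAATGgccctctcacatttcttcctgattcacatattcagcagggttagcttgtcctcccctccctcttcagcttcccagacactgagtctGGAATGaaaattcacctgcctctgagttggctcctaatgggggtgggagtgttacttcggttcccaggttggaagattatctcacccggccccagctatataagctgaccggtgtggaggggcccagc

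That motif is in 11.9% of the 27305 promoters and in 6 of the 16 YAP targets with an entry. The 16 were counted whether called or not. Here too a match is a description of letters, and a role of the motif in the fall was not tested.

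IGFL1, a small secreted protein of the IGF-like family, fell furthest of the protein-coding genes named by size. It went from 3.41, 4.21, 4.48 and 4.83 CPM at 0 h to 0.364, 0.493, 0.772 and 0 CPM at 16 h (log2 fold change -3.28 ± 0.53, edgeR adjusted p = 7.699e-05). The levels at 16 h rest on few counts, and the standard error is wide. Neither motif occurs in its 250 bases before the RefSeq start, shown as the counterpart of the CYP1A1 window.
IGFL1, chr19:46229492-46229741, plus strand: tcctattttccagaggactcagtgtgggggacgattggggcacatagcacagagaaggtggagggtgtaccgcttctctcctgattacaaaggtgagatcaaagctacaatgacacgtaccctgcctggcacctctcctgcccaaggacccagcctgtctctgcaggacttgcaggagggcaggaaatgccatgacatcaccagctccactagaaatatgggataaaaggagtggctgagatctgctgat

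The other genes that fell far were likewise scarce. ZBED2, IL7R, the interleukin-7 receptor, and CAMK1G had 2.65, 3.76 and 2.31 CPM at 0 h and 0.269, 0.571 and 0.349 CPM at 16 h. KRT81, a hair keratin, fell by 2.26 on the log2 scale from 10.8 CPM, and COL13A1, a transmembrane collagen, by 2.24 from 6.74 CPM. Genes that rose most after CYP1A1 were also of low level, such as FGF22, PTCHD1 and GJB6, a connexin, at 0.513, 0.736 and 0.508 CPM at 0 h and 1.87, 2.82 and 1.92 CPM at 16 h. PROX1, a homeobox regulator, rose by 1.53 on the log2 scale, from 2.96 to 8.26 CPM, with 5.08 CPM in the highest 0 h library and 6.47 CPM in the lowest at 16 h. Among noncoding genes H19, an imprinted RNA, rose from 18.8 ± 6.57 to 63.7 ± 22.8 CPM (SD, n = 4, log2 fold change 1.78, edgeR adjusted p = 4.17e-05).

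Abundant genes that fell included S100A6, a calcium-binding protein. It had 641, 446, 528 and 489 CPM at 0 h and 231, 256, 262 and 239 CPM at 16 h (log2 fold change -1.09, edgeR adjusted p = 2.759e-05). ENC1, an actin-binding protein, fell by 0.61, and SCD, the stearoyl-CoA desaturase, by 0.52. HSPA8, the constitutive heat shock cognate, and EIF4G2, a translation initiation factor, rose by 0.44 and 0.45 from 2002 and 1681 CPM. The call of HSPA8 was lost under 11 of 17 alternatives and that of RPL4, a ribosomal protein with a log2 fold change of 0.30, under 13.

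CDX2, the homeobox factor that sets intestinal identity, rose clearly. It had 89.0, 84.2, 107 and 74.4 CPM at 0 h and 189, 221, 236 and 228 CPM at 16 h (log2 fold change 1.30 ± 0.13, edgeR adjusted p = 1.591e-09). The groups did not overlap. Other intestinal genes did not move with it beyond their spread: of 11 that passed the filter, CDX2 rose and SLC26A3, a chloride exchanger at under 1 CPM, fell with overlapping groups, while KRT20 had 68.0 CPM at 0 h and 69.6 CPM at 16 h. Of 13 WNT targets, LEF1 and ZNRF3 rose by 0.65 and 0.59 and CD44, an adhesion receptor, fell by 1.14 on the log2 scale. The median of the WNT list was 0.35, and 0.23 to 0.26 under the other scalings and with the trend removed. For both lists, the shares over all genes were 4.23% called higher and 4.78% called lower.

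Of 18 immediate early genes, MYC and EGR1 rose. For this list and the next ones, the shares over all genes were 4.23% called higher and 4.78% called lower. MYC had 61.1 to 76.4 CPM at 0 h and 116 to 141 CPM at 16 h, a log2 fold change of 0.84 (edgeR adjusted p = 1.082e-05), and EGR1 had 186 to 209 CPM and 296 to 362 CPM, a log2 fold change of 0.74 (edgeR adjusted p = 0.00235). FOS and JUN, the AP-1 subunits, had log2 fold changes of 0.44 and 0.30 and did not pass the test. Among 13 genes of MAPK feedback, the phosphatases DUSP4 and DUSP5 fell by 0.96 and 0.88. Of 14 targets of TGF-beta and BMP, 2 fell and 2 rose: LTBP2 fell by 0.94, and BAMBI, a decoy receptor, and ID1 rose by 1.05 and 0.61. LTBP2 and ID1 each lost the call under 5 of 17 alternatives, and the groups of ID1 overlapped.

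PER2, a repressor arm of the circadian clock, had 19.5, 20.7, 22.8 and 17.2 CPM at 0 h and 41.0, 41.9, 43.6 and 42.8 CPM at 16 h. The groups were far apart, and the log2 fold change was 1.07 ± 0.13 (edgeR adjusted p = 8.254e-07). CRY2, its partner in repression, rose by 0.63 and CLOCK by 0.54, the latter with a call lost under 10 of 17 alternatives. These were 3 of 17 clock genes, against 4.23% of all genes, and none fell, while RLE and library-size scaling gave 2 higher and 1 lower. BMAL1, DBP and NR1D1 did not pass the test, with log2 fold changes of 0.14, -0.22 and -0.48. The hour at which the wells were collected is not given in the sources used here.

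Of 17 targets of ATF4, the factor of the amino acid response, ASNS, DDIT3, DDIT4 and CHAC1 fell and SLC7A5 rose. Over all genes, 4.78% were called lower and 4.23% higher. The count that fell was 2 to 10 under the other settings and 2 to 4 with 1 replicate left out. DDIT3 and DDIT4 each lost the call under 5 of 17 alternatives. ASNS, asparagine synthetase, went from 11.6 to 5.12 CPM (log2 fold change -1.18, edgeR adjusted p = 0.000424). The median of that list was -0.20. CDKN1A, the p21 cell cycle inhibitor, fell from 78.5 ± 9.46 to 38.4 ± 5.50 CPM (SD, n = 4, log2 fold change -1.03), while MDM2 and XPC, also targets of p53, rose by 0.37 and 0.46 with calls lost under 7 and 13 of 17 alternatives. None of the 21 S phase genes was called, and of 25 mitotic genes CDC20 rose by 0.42 and CENPE, a kinetochore motor, fell by 0.50.

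Of 14 chaperones of the endoplasmic reticulum, CALR, PDIA4 and DNAJC3 rose by 0.42 to 0.51 on the log2 scale, but none was called under RLE or library-size scaling or with the abundance trend removed. Beside the counts given here, 4.23% of all genes were called higher and 4.78% lower. Of 23 genes of cholesterol synthesis 2 fell, among them FDPS, a synthase of that pathway, by 0.45. The desaturase SCD fell while FADS2 and ELOVL6, which desaturate and lengthen other fatty acids, rose by 0.82 and 0.67. TGM2, a transglutaminase induced by retinoic acid, fell by 1.52, and DHRS3 and RDH10, dehydrogenases of retinoid metabolism, rose by 1.57 and 0.56.

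Genes of inflammation and of the nuclear lamina were called in a few cases, where 4.23% of all genes were called higher and 4.78% lower. IL32 and CXCL8, both cytokines at 2.19 and 3.07 CPM at 0 h, fell among 14 NF-kB and cytokine genes. CXCL8 lost its call under 4 of 17 alternatives. The median of that list was -0.41, and 2 of its 14 members had a positive log2 fold change. With RLE or library-size scaling 4 of them were called lower, and 2 with the abundance trend removed. OAS2 rose by 0.82 among 18 interferon-stimulated genes. SYNE1 and SYNE2, the giant nesprins of the outer nuclear membrane, fell by 1.15 and 0.55 among 13 lamina genes, SYNE2 with overlapping groups and a call lost under 7 of 17 alternatives. LMNA, LMNB1 and LMNB2, which encode the lamins tagged in the other lines, had log2 fold changes of -0.15, 0.25 and 0.48 and did not pass the test. Of 18 SRF targets TGFB1I1 fell and SRF rose, the latter with a call lost under 10 of 17 alternatives, and RLE and library-size scaling gave 2 lower and 0 higher. Of 18 genes of matrix adhesion COL17A1 fell by 0.90, and 3 were called lower with RLE or library-size scaling, 4 with the abundance trend removed and 2 to 7 over all the settings other than leaving out 1 replicate. VEGFA fell by 0.48 and was the only 1 of 20 hypoxia targets called. Of these 20, 16 had a positive log2 fold change, and their median was 0.22. Over the settings other than leaving out 1 replicate, 0 to 7 of them were called higher. HSPA8 alone was called among 12 heat shock genes, of which 11 had a positive log2 fold change.

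**Figure D3:**
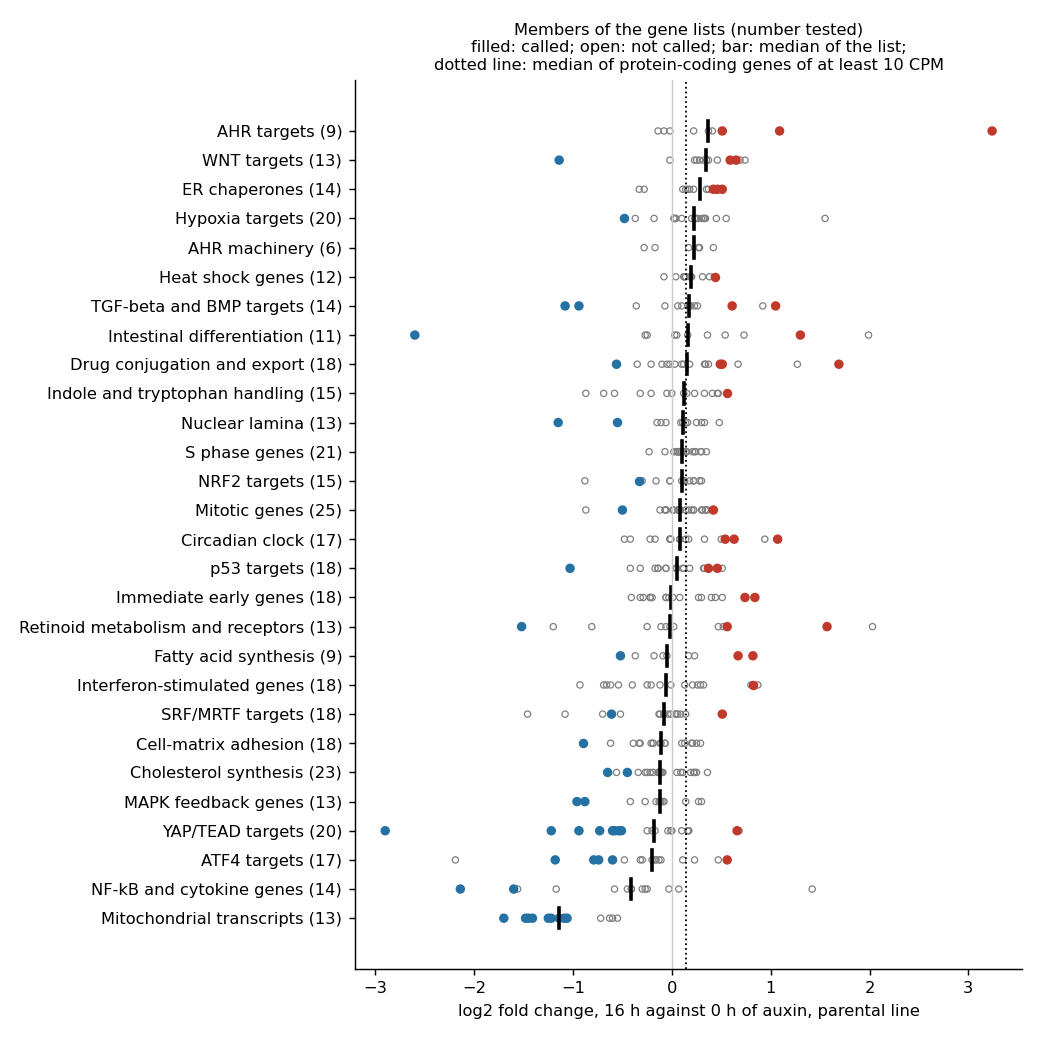
Log2 fold change at 16 h against 0 h for each tested member of 28 gene lists (horizontal axis), filled where called and open where not, with the median of each list as a bar and the median of abundant protein-coding genes, 0.14, as a dotted line. Filled points are the minority in each list except the mitochondrial transcripts, which have a median of -1.14.

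Transcripts of the mitochondrial genome, which encode subunits of the respiratory chain, were lower at 16 h. Of 13 measured, 9 were called lower and none higher, against 4.78% and 4.23% of all genes. All 13 fold changes were below 0, with a median of -1.14 on the log2 scale. The 13 come from the same genome and share its part of each library, so they are not 13 separate observations. MT-ND5, a subunit of complex I, had 723, 316, 413 and 606 CPM at 0 h and 116, 183, 238 and 199 CPM at 16 h (log2 fold change -1.48 ± 0.30, edgeR adjusted p = 0.00144). The 0 h libraries differed among themselves, but none reached down to the 16 h range. MT-ND6, the subunit encoded on the other strand, fell by 1.70, whereas MT-CO1, the most abundant of them, had a log2 fold change of -0.55 and did not pass the test. Without replicate 1 at 0 h, 2 of the 13 were called. Mitochondrial counts were 1.27% ± 0.225 of each library at 0 h and 0.716% ± 0.186 at 16 h (SD, n = 4).

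Other classes of transcript shifted in the same libraries. Antisense genes took 0.586% ± 0.0499 of counts at 0 h and 0.438% ± 0.0204 at 16 h (SD, n = 4), long intergenic RNAs 0.595% and 0.428%, processed pseudogenes 0.256% and 0.184%, and misc_RNA 1.21% and 0.484%, while protein-coding genes rose from 95.9% to 97.3%. No class overlapped between the groups, and the two-sided exact permutation test gave p = 0.0286 for each of the 6 shares, also after adjustment over them, the smallest that 4 against 4 allows. Median log2 fold changes were -0.34 for long intergenic RNAs, -0.54 for antisense genes and -0.80 for processed pseudogenes. These classes move with the calls among scarce genes, and their part in those calls was not tested. How strand was used in counting is not given in the sources used here, so antisense and overlapping genes are uncertain.

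**Figure D4:**
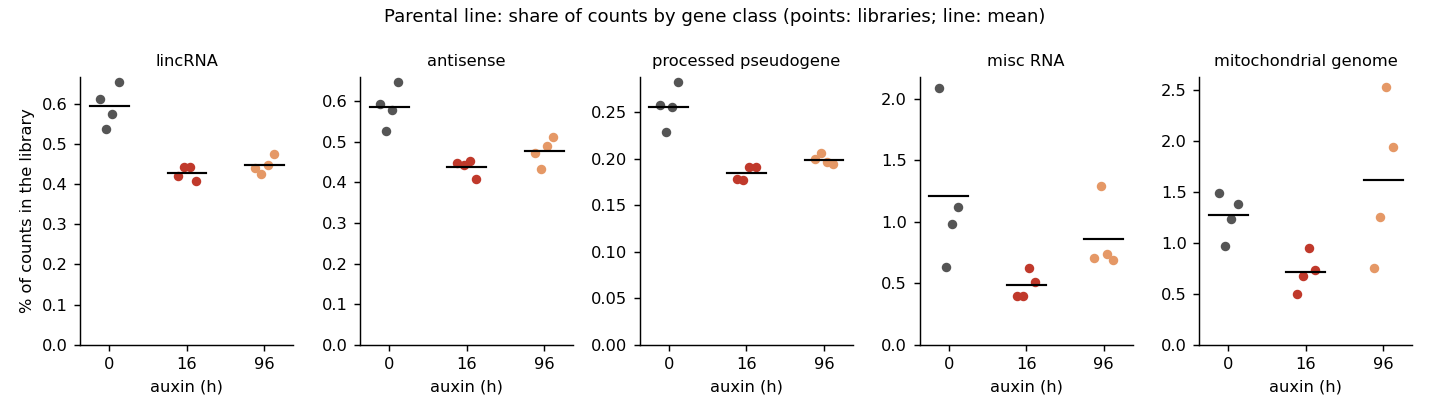
Share of each parental library's counts in 5 classes of genes (vertical axes, %) at 0, 16 and 96 h of auxin, points for libraries and lines for means (n = 4). All 5 classes are lower in each 16 h library than in any 0 h library, and the mitochondrial share is 1.62% on average at 96 h, from 0.752% to 2.53%.

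The lines with a tagged lamin have their own libraries at 0 h, so their change at 16 h shares no sample with that of the parental line, though it joins the effect of auxin with the loss of a lamin. The changes called in the parental line kept their direction in most cases. Of the 909 genes that rose, 81.4% had a positive log2 fold change in LA/C-AID, 93.1% in LB1-AID and 94.5% in LB2-AID, against 60.1%, 66.5% and 66.1% of abundant protein-coding genes. Of the 1026 that fell, 21.2%, 12.7% and 9.6% were positive, against 47.8%, 48.7% and 47.7% of all genes tested. Most of these were scarce: of the 741 with under 10 CPM, 20.0%, 13.6% and 10.1% were positive, against 38.2%, 34.6% and 33.4% of all genes at that level. Across 9378 protein-coding genes of at least 10 CPM, Pearson's r between the parental change and that of the 3 lines was 0.36, 0.54 and 0.58, a description across genes, which are not independent, and which share the trend with abundance (0.34, 0.51 and 0.56 with that trend removed).

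Calls in common were few. The tagged lines had 383, 323 and 388 genes called at 16 h (1.78%, 1.5% and 1.81%). LB1-AID had 7 libraries in this comparison and the other lines 8 each. The least deep of the 46 libraries had 479446 counts, against 3770140 in the least deep of the 8 parental ones. What number and depth of libraries add to the counts of calls was not tested. A set of 19 genes passed the test with 1 direction throughout the 4 lines (0.0884%), 18 of them higher (0.0838%) and 1 lower (0.00465%). Among these were CYP1A1, with log2 fold changes of 3.24 in the parental line and 2.35, 3.60 and 3.16 in LA/C-AID, LB1-AID and LB2-AID, and CYP1B1, with 1.09, 1.18, 0.86 and 1.21. ANGPTL4, a secreted inhibitor of lipoprotein lipase, rose by 1.29 in the parental line, from 4.43 to 10.6 CPM, and by 1.71, 2.18 and 1.27 in the others. PER2 rose by 1.07, 0.70, 0.80 and 1.44, EGR1 by 0.74, 0.60, 0.87 and 0.82, and CILK1, a kinase of cilia, by 0.74, 0.71, 0.93 and 0.77. The set had 12 genes with library size only, 30 without the low-count filter, 1 with each line fitted alone and 218 with limma voom.

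**Figure D5:**
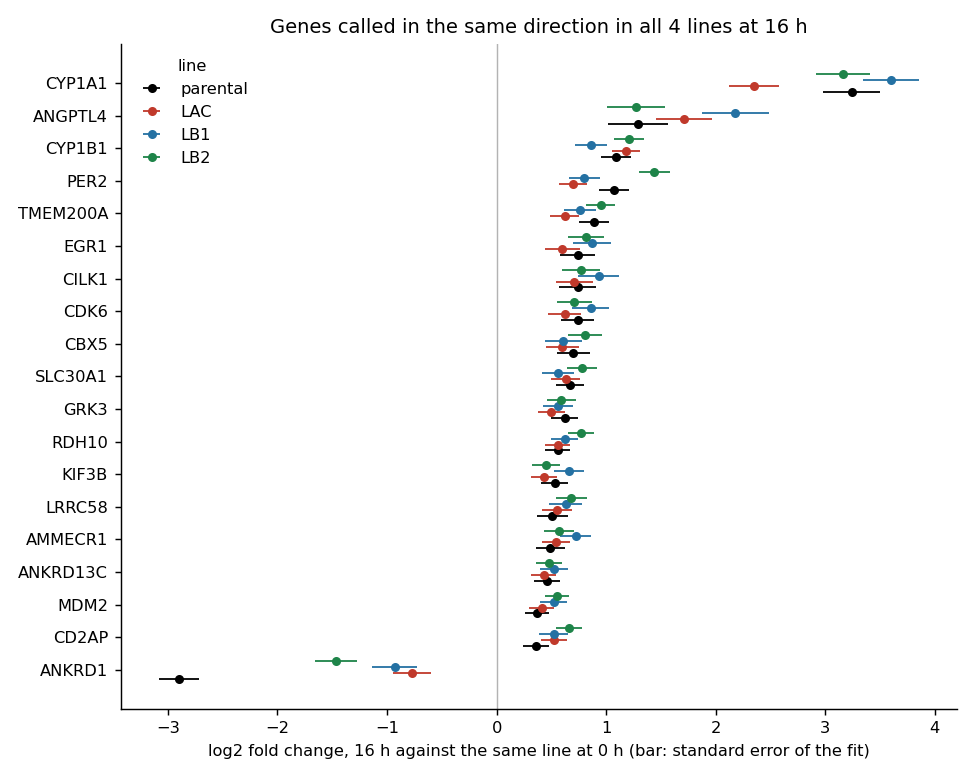
Log2 fold change at 16 h against the same line at 0 h (horizontal axis, bars are the standard error of the fit) for the 19 genes called with 1 direction in the parental line (black) and the LAC, LB1 and LB2 lines. ANKRD1 is the only gene of the 19 that is lower, and its parental change of -2.90 is larger than the -0.77, -0.93 and -1.47 of the tagged lines.

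Where the parental response was larger or smaller than that of a tagged line, the difference itself was tested in edgeR. It was called for 25 genes in LA/C-AID (0.116%), 6 in LB1-AID (0.0279%) and 1 in LB2-AID (0.00465%), with 2651, 1340 and 1195 genes at an unadjusted p under 0.05. By chance alone a share of 0.05 of the 21484 genes tested would reach that p, so these larger counts are not counts of differences. ANKRD1 was called in all 3: its fall was smaller in each tagged line, by 2.13, 1.97 and 1.43 on the log2 scale. These tests share the 8 parental libraries, and the call in LB2-AID was lost under 10 of 17 alternatives, with differences of 1.29 to 1.54. CDX2 rose by 1.30 in the parental line and had a log2 fold change of 0.32 in LA/C-AID (difference -0.98, edgeR adjusted p = 0.00511). MYC, BAMBI and NUAK2, which rose in the parental line, had log2 fold changes of 0.09, 0.00 and -0.46 in LA/C-AID. Their differences of -0.75, -1.04 and -1.12 lost the call under 8, 6 and 3 of 17 alternatives. ASNS, SYNE1, CLDN1, a tight junction protein, and MCTP1 fell in the parental line. They had differences of 1.72, 1.56, 1.50 and 1.46 in LA/C-AID, and that of SYNE1 lost the call under 2 of 17 alternatives. ITPR2, a calcium channel of the endoplasmic reticulum, rose by 0.92 in the parental line and differed in LB1-AID by -1.34.

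The parental line was also sampled after 96 h of auxin. That comparison shares the 0 h libraries, so its values stand beside those at 16 h with no test of likeness. CYP1A1 had a log2 fold change of 3.24 at 16 h and 2.84 at 96 h, ANKRD1 -2.90 and -3.66, CDX2 1.30 and 1.24, PER2 1.07 and 1.27, and S100A6 -1.09 and -0.83. Between 96 h and 16 h themselves, 57 of 21484 genes were called (0.265%), and 29 of these had been called at 16 h. Of the 29, 26 moved back between 16 h and 96 h, some of them past the 0 h level, and 3 moved on: EGR1 rose on from 324 to 614 CPM, and CALD1, an actin-binding protein, and SLC2A3, a glucose carrier, fell on. Both comparisons use the same 16 h libraries, with opposite sign. Choosing genes called in both therefore favours those that move back, and the split of 26 and 3 is no measure of recovery.

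Those that moved back included 10 transcripts of the mitochondrial genome. MT-ND5 rose from 184 ± 51.2 CPM at 16 h to 629 ± 261 CPM at 96 h, against 514.5 ± 184 CPM at 0 h (SD, n = 4). MT-ND1 rose from 162 ± 37.6 to 584 ± 221 CPM (log2 fold change 1.85 between 16 h and 96 h, edgeR adjusted p = 0.00036), against 383 ± 138 CPM at 0 h. The 96 h libraries differed widely. Replicate 1 at 96 h had 259 CPM of MT-ND5, and its mitochondrial share of 0.752% lay within the 0.502% to 0.953% of the 16 h libraries. At 16 h, 9 of the 13 mitochondrial transcripts were also called lower in LA/C-AID, 6 in LB1-AID and none in LB2-AID, beside 0.447%, 0.517% and 0.377% of all genes. S100P, a calcium-binding protein, and LCN2, an iron-siderophore carrier, had fallen from 57.2 and 4.01 CPM at 0 h to 28.2 and 1.25 CPM and stood above the 0 h level, at 84.2 and 7.91 CPM, at 96 h. CADM1, an adhesion molecule, ABAT and ACAA2, a thiolase of fatty acid oxidation, had risen from 21.3, 24.0 and 139 CPM to 45.0, 34.7 and 201.5 CPM and stood at 19.6, 17.4 and 128 CPM.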

How the data were processed

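The authors' deposited file holds raw counts of 46 libraries, made with featureCounts 1.6.4 in an nf-core/rnaseq 1.4.2 environment, per the file headers, from STAR 2.7.10a alignments to GRCh38, per the submitters' processing notes. Libraries were stranded total RNA depleted of ribosomal RNA and sequenced in pairs, per the labels' protocols. Strand setting, multi-mapping reads and annotation release are not given in the sources used here. A gene broken over 3 lines was left out, and 0 columns were unmatched. Gene types came from GENCODE 29 and promoters from RefSeq.

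Counts were tested with edgeR 4.0.16 (quasi-likelihood, TMM, filterByExpr, 21484 genes, 12 groups in 1 fit, Benjamini-Hochberg adjustment, called at 0.05, two-sided), after a check on simulated data. Levels are TMM-scaled CPM, mean ± SD over 4 wells. Named were the 12 protein-coding genes that rose and the 12 that fell most (called, at least 1 CPM, groups apart), 3 each way of other types, the 5 most abundant each way, up to 5 called members of each of 28 lists (or 2 uncalled), the AHR and lamin genes, and the leading genes shared by 4 lines or differing between lines. Genes called at both 16 h and in 96 h against 16 h were named after their values were seen. A few genes that met these rules are not reported here. The members and lists were chosen with earlier results of these data known. Alternatives were scaling by RLE or by library size alone, a fit of all genes with a count, DESeq2 1.42.0, fits to the compared groups alone, a replicate block, libraries of at least 5000000 counts, limma 3.58.1 voom with quality weights, each replicate left out and, chosen after seeing the data, removal of the trend with abundance.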

Additional observations from a re-analysis of the deposited data

Results flagged for a closer look

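In 11 of 240 groups examined (120 named genes at 2 times) 1 library of the parental line lay far from the other 3, by a gap that chance gives in about 1 in 20 groups, so the count is not above that share. At 16 h these were IRF8 at 2.50 CPM in replicate 4, EPHX1 at 134 CPM in replicate 4 and GPR52 at 0.575 CPM in replicate 2. At 0 h they were the pseudogene ARL4AP4 at 4.83 CPM, CCN1 at 145 CPM, RRM2 at 530.2 CPM, MCM4 at 449 CPM and CLDN1 at 15.5 CPM in replicate 4, which is the least deep of the 8 libraries, EIF4G2 at 1869 CPM and CLOCK at 209 CPM in replicate 2, and EGR1 at 209 CPM in replicate 3. In that replicate 4, CCN1 was the 0 h value nearest to the 16 h range, and its groups still did not overlap.

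In 12 cases the change of a named gene at 16 h differed between the parental line and a tagged line, by the edgeR test of the difference. Against LA/C-AID these were ANKRD1 (2.13), ASNS (1.72), SYNE1 (1.56), CLDN1 (1.50), MCTP1 (1.46), NUAK2 (-1.12), BAMBI (-1.04), CDX2 (-0.98) and MYC (-0.75), as tagged minus parental on the log2 scale. Against LB1-AID they were ANKRD1 (1.97) and ITPR2 (-1.34), and against LB2-AID ANKRD1 (1.43). All these tests share the 8 parental libraries.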

How the results depend on the processing

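Of 120 named genes, 99 were called, 45 of them under all 17 alternatives, and none of the 99 changed sign. CYP1B1 (log2 fold changes of 0.94 to 1.21), ANKRD1 (-3.02 to -2.77) and PER2 (0.96 to 1.16) are among the 45. The 1935 calls became 3266 with the compared groups alone, 4943 with limma voom and 1086 with the abundance trend removed, and 959 to 2389 with 1 replicate left out. The 734 calls of at least 2-fold became 1566 with limma voom, 349 with the trend removed and 409 to 782 with 1 replicate left out. The 19 genes shared by 4 lines became 12 with library size only, 30 without the low-count filter, 1 with the compared groups alone and 218 with limma voom (13 to 20 with 1 replicate left out).

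The 25 differences from LA/C-AID became 45 with RLE scaling, 53 with library size only, 117 without the filter, 224 with DESeq2, 67 without libraries under 5000000 counts, 675 with limma voom and 60 with the trend removed (13 to 26 with 1 replicate left out). The 6 from LB1-AID became 27 without the filter, 30 with DESeq2, 37 with the compared groups alone, 21 without shallow libraries and 35 with limma voom (3 to 8 with 1 replicate left out). The 1 from LB2-AID became 6 without the filter, 2 with DESeq2 and with limma voom, and 0 with RLE scaling, with the compared groups alone and with the trend removed (0 to 1 with 1 replicate left out). The 57 calls between 96 h and 16 h became 95 without the filter, 112 with DESeq2, 178 with the compared groups alone, 171 without shallow libraries and 567 with limma voom (30 to 55 with 1 replicate left out). The cause of these shifts was not tested.

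Replicate numbers were not used as pairs, since the rule asked for all 4 correlations to be over 0.1. Same-numbered libraries at 0 h and 16 h correlated at 0.02 to 0.34 in their deviations, with 2 of 4 pairs over 0.1. Of the 4 libraries at 16 h, 1 correlated best with its own number. The values were rounded, a pair lay at 0.1 and replicate 3 at 16 h was tied, and they cannot show that the wells were unpaired. With the replicate block there were 3589 calls, 695 of at least 2-fold, 1 gene shared by 4 lines, 37, 120 and 0 differences from LA/C-AID, LB1-AID and LB2-AID, and 170 calls between 96 h and 16 h.

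Genes that changed sign were all uncalled. With the trend removed ALDH2 was at -0.02, HSP90AA1 at -0.03, HSPD1 at -0.10, RRM2 at -0.16 and AHRR at 0.16. Without the low-count filter FTL was at 0.07, THBS1 at 0.01 and AHRR at 0.01, and without shallow libraries FTL was at 0.05 and AHRR at 0.07. RRM2 was at -0.04 with RLE scaling and DESeq2, -0.05 with library size only and -0.01 with the compared groups alone and with the replicate block. With 1 replicate left out, values ran from -0.02 to 0.22 for ALDH2, -0.11 to 0.11 for FTL, -0.14 to 0.05 for THBS1, -0.00 to 0.14 for RRM2 and -0.20 to 0.13 for AHRR. Depth limits scarce genes most: of the called genes at least 2-fold lower, the median level was 2.04 CPM.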
